A study of Mus musculus with 12 samples.

Results

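Heparan sulfate proteoglycans and the sulfatases that edit their chains were followed as 10 genes chosen by name: the sulfatases *Sulf1* and *Sulf2*, the glypicans *Gpc3*, *Gpc4* and *Gpc6*, the syndecans *Sdc1*, *Sdc2*, *Sdc3* and *Sdc4*, and *Hspg2*, which encodes perlecan. Each was found once, by its symbol, among the 39017 genes of the count table, and all 10 passed the filter on low counts. Whole adrenals, cleared of fat, gave the RNA of 12 females of 10 to 11 weeks on a mixed sv129-C57Bl/6 background, 6 controls (Ctrl) and 6 βCat-GOF mice, to ask which transcripts change when β-catenin is stabilized in the zona glomerulosa (zG), the outer aldosterone-producing layer. Controls have the genotype ASCre/+, and βCat-GOF mice are bigenic ASCre/+ ::Ctnnb1fl(ex3)/+. By these labels Cre is expressed in both groups from the aldosterone synthase gene *Cyp11b2* (AS), a gene of zG cells. Only βCat-GOF mice lose an exon of 1 *Ctnnb1* allele there. Sample titles call the controls Wt, and the study writes of wild type adrenals, so Cre in controls rests on the genotype label. Mice are called by group and number (Ctrl 3, βCat-GOF 1), and equal numbers do not pair them. Because the RNA came from whole glands, more cells of a type and more RNA per cell cannot be told apart.

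Heparan sulfate is a long sugar chain carried by core proteins at the cell surface and in basement membranes. Its sulfate groups bind FGFs, Wnts, Hedgehog proteins and many other secreted factors, and they take part in the complex of an FGF with its receptor. Glypicans are tied to the membrane by a lipid anchor, syndecans span it, and perlecan is secreted into basement membranes. *Sulf1* and *Sulf2* encode extracellular enzymes that remove 6-O-sulfate groups from finished chains, which is known to weaken FGF signaling and to ease the release of Wnts from the cell surface.

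Libraries held between 14090378 and 25625494 counts in Ctrl (median 21705716) and between 13484675 and 24951480 in βCat-GOF mice (median 20417937), and a single member had between 299 and 20255 counts in a mouse. The first number in the labels is the same for all 6 controls and another for 5 of the 6 βCat-GOF mice, all but βCat-GOF 5, so a family or batch that follows it cannot be told apart from the genotype. The labels of 3 pairs share a stem: Ctrl 1 and 2, Ctrl 3 and 4, and βCat-GOF 1 and 2. The study counts every sequenced sample as a separate female mouse, while the labels alone do not show this for such a pair. If a pair were 1 animal, n would be under 6 and the p-values too small. With 1 sample kept of each pair, by leaving out Ctrl 1, Ctrl 3 and βCat-GOF 1, the log2 fold change of *Sulf1* was 1.37 (adjusted p = 0.0067, edgeR). Ctrl 3 and βCat-GOF 1 had the most *Sulf1* of their groups, and other choices from the pairs were not fitted. Leaving out the last pair raised the genes called over the whole table from 222 to 440 higher and from 130 to 470 lower (edgeR). Counts per gene do not resolve the deleted exon, so the recombination itself could not be checked, and *Ctnnb1* as a whole had a log2 fold change of -0.02 (adjusted p = 0.91, edgeR). The marker genes of adrenal cell types were present, with no defining marker at a median under 3 counts. Of the smooth muscle markers 5 of 6, and of the Schwann cell markers 3 of 4, passed the filter on low counts. In every other list all did. The 8 zG markers summed to between 26323 and 40658 normalized counts in Ctrl and between 36427 and 65436 in βCat-GOF mice, and 4 of the 8 rose (adjusted p under 0.05, edgeR). Of 8 zona fasciculata (zF) markers, 2 rose, with sums between 1124642 and 1312026 in Ctrl and between 820009 and 1847519 in βCat-GOF. Of 8 macrophage markers, 2 fell, with sums between 8444 and 16535 and between 6741 and 11286. In the remaining lists, for the X-zone, medulla, capsule and stroma, endothelium, smooth muscle, adipocytes, Schwann cells and plasma cells, 0 of 44 genes tested passed an adjusted p under 0.05 (edgeR), and 3 higher and 6 lower had an unadjusted p under 0.05. The share of all genes at an unadjusted p under 0.05 is not given, so these counts show neither an excess nor a lack.

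Of the 10 members, 1 rose and 0 fell in βCat-GOF adrenals, by edgeR's quasi-likelihood test and by DESeq2 alike. The cut-offs were a fold over 1.4, a mean normalized count over 100 in the 12 mice and an adjusted p under 0.05. Over all 14953 genes tested, 1.48% passed in the upward and 0.869% in the downward direction, and 2.35% in either, while 3.68% had an adjusted p under 0.05 alone. At an unadjusted p under 0.05 the members gave the same counts. The gene that rose was *Sulf1*. The median log2 fold change of the members was 0.0074, beside 0.000105 for all genes tested. In 0 of the 10 did the groups separate completely, as they did in 2.78% of all genes.

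**Figure D1:**
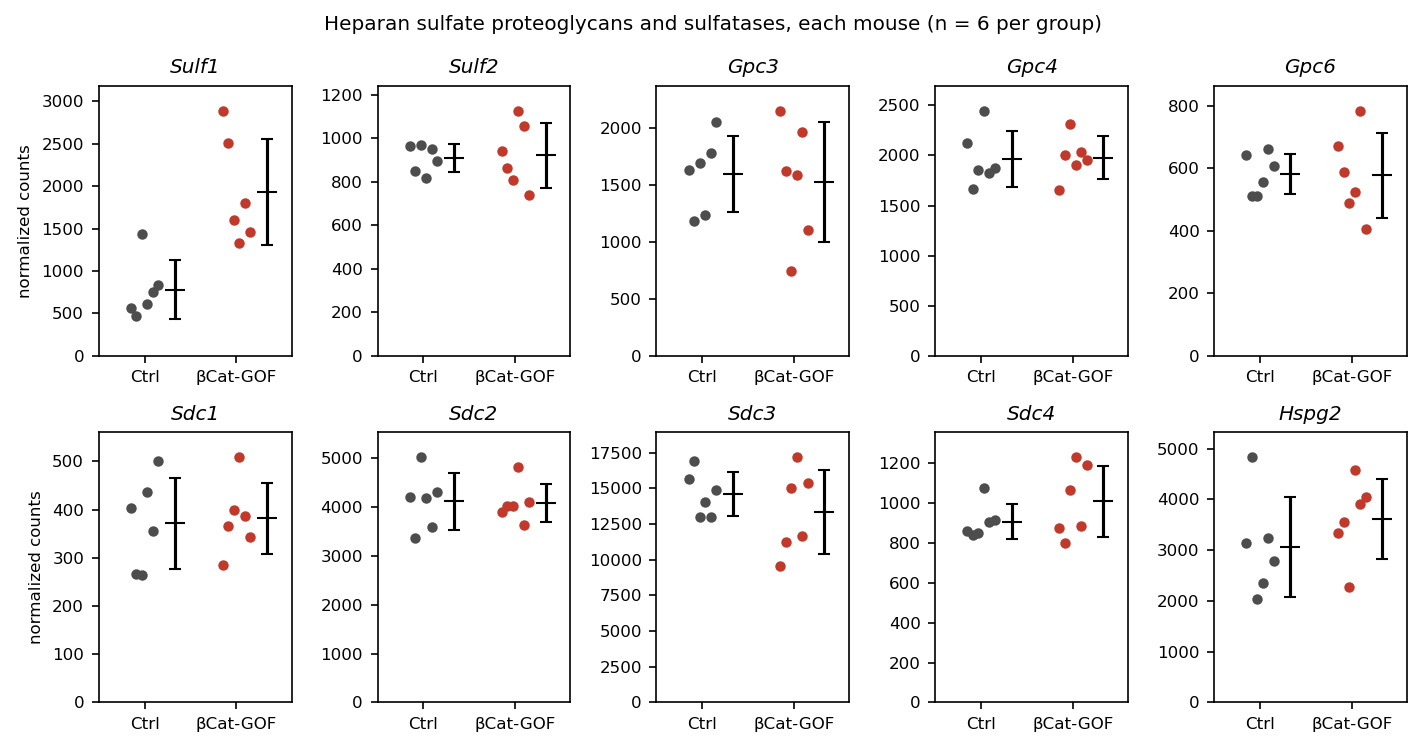
Normalized counts (y axes, from 0) of the 10 genes in each mouse (dots), with the mean and SD of 6 mice per group beside them (bars); only *Sulf1*, at 475 to 1439 in Ctrl and 1330 to 2891 in βCat-GOF, passed the cut-offs.

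*Sulf1* (ENSMUSG00000016918) is a plus-strand gene of chromosome 1 (12692277 to 12861192, GRCm38, also called mm10) with 26 merged exons. In controls it had 475 normalized counts in Ctrl 2, 570 in Ctrl 1, 616 in Ctrl 4, 755 in Ctrl 5, 838 in Ctrl 6 and 1439 in Ctrl 3. In βCat-GOF mice it had 1330 in βCat-GOF 4, 1457 in βCat-GOF 6, 1600 in βCat-GOF 3, 1798 in βCat-GOF 5, 2505 in βCat-GOF 2 and 2891 in βCat-GOF 1. The groups touched only through Ctrl 3, which lay above βCat-GOF 4, and the other 5 βCat-GOF mice exceeded every control. The means were 782 ± 347 in Ctrl and 1930 ± 627 in βCat-GOF (SD, n = 6 each). The fold was 2.46, with a 95% interval from 1.66 to 3.67, which is 1.30 on the log2 scale with a standard error of 0.27 and an adjusted p of 0.0163 (edgeR). Of all genes tested, 1.63% had a larger absolute log2 fold change. *Sulf1* passed in all 12 fits that left out 1 mouse, with log2 fold changes from 1.15 to 1.57, the highest without Ctrl 3. Without βCat-GOF 1 and βCat-GOF 2, the βCat-GOF mice with the most *Sulf1*, it was 0.97 and still passed (adjusted p = 0.0313, edgeR, with a range of 6.38e-05 to 0.0404 over the 21 alternatives).

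*Sulf2* (ENSMUSG00000006800; chromosome 2, 166073089 to 166155663, minus strand) encodes the other enzyme with the same activity. It had between 817 and 968 normalized counts in Ctrl (median 925) and between 738 and 1128 in βCat-GOF mice (median 902). The ranges lay over each other, and the log2 fold change was 0.01 (edgeR, adjusted p = 0.96, with a standard error of 0.11), with a 95% interval from -0.21 to 0.24. An opposite-strand gene, *Ncoa3*, covers 2.62% of its exons, and whether the counting used strand is not stated. Since a pass in one gene and a miss in the other do not show that they differ, the ratio of *Sulf1* to *Sulf2* was tested within each mouse. There was between 0.558 and 1.49 times as much *Sulf1* as *Sulf2* signal in Ctrl, and between 1.18 and 3.07 times as much in βCat-GOF mice, with no correction for gene length. In 5 of the 6 βCat-GOF mice the ratio lay above all controls. The log2 ratio was higher by 1.33 in βCat-GOF (mean -0.31 ± 0.51 in Ctrl and 1.02 ± 0.51 in βCat-GOF, SD, n = 6 each). An exact two-sided permutation test gave p = 0.00433, where 6 against 6 mice allow 0.0022 at the least.

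**Figure D2:**
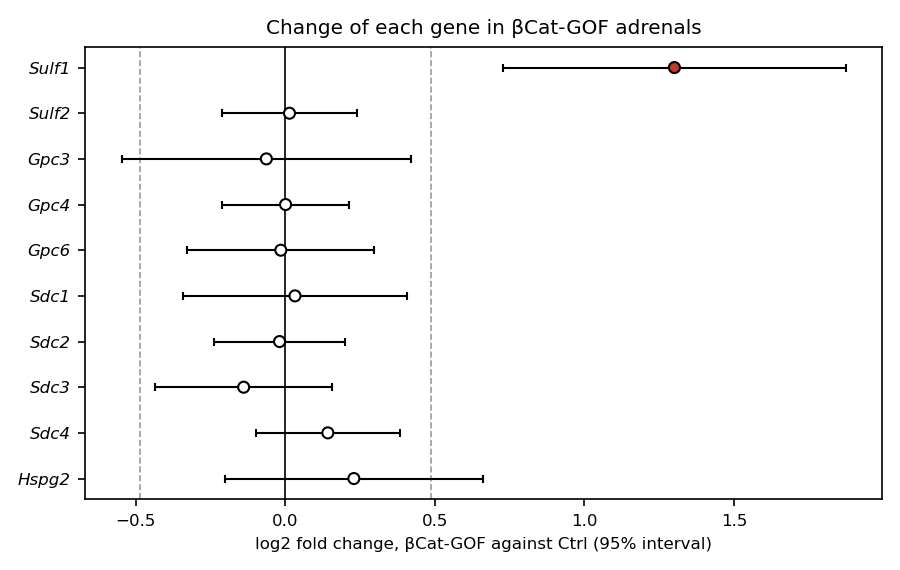
Log2 fold change of each of the 10 genes (points) with its 95% interval (bars) from edgeR; the red point passed the cut-offs, white points did not, and dashed lines mark a fold of 1.4 either way. *Sulf1* stands at 1.30, and the other 9 lie between -0.14 and 0.23.

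Per length of merged exons, *Sulf1* was at 3.46 ± 1.53 CPM per kb (counts per 1 M counts of the library and per kb of exon, SD, n = 6) in controls and at 8.53 ± 2.90 in βCat-GOF adrenals. *Sulf2* was at 7.74 ± 0.51 in Ctrl and 7.82 ± 1.32 in βCat-GOF. The place of *Sulf1* depended on the length used, since its merged exons span 11294 bases and its longest transcript 5598. Among the 10 members it ranked 10 in Ctrl and 7 in βCat-GOF by merged exons, but 9 and 6 by the longest transcript, a choice added after the data were seen, where it had 17.2 ± 5.85 in βCat-GOF against 10.0 ± 1.69 for *Sulf2*. By merged exons, the range of *Sulf1* in controls, 2.12 to 6.35, overlapped those of *Gpc6* (4.53 ± 0.50) and *Sdc1* (4.88 ± 1.24). At the top of the order stood *Sdc3* at 122 ± 13 and *Sdc2* at 58.3 ± 8.03, both clear of their neighbours in every control mouse. *Gpc4* (37.1 ± 5.25) and *Gpc3* (29.7 ± 6.11) followed and overlapped each other. *Sdc4*, at 17.8 ± 1.76, came next and overlapped *Hspg2*, at 10.7 ± 3.48 with a range reaching 17.0, which in turn overlapped *Sulf2*. *Sdc3*, *Sdc2*, *Gpc4*, *Gpc3* and *Sdc4* led in this order in both groups and by both lengths.

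For all 9 members other than *Sulf1* the adjusted p lay between 0.507 and 0.997 (edgeR), and the 95% intervals together reached from a fold of 0.684 to one of 1.58. In 7 of the 9 the interval lay within a fold of 1.4 in both directions, the exceptions being *Gpc3*, whose lower bound was 0.684, and *Hspg2*, whose upper bound was 1.58.

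RefSeq promoter windows (GRCm38.p6) matched 7 of the 10 members, all but *Sulf1*, *Gpc6* and *Sdc2*. The 250 bases before the start are printed for *Sulf2*, the enzyme set beside *Sulf1* above, and for *Sdc3*, the member with the highest level. Capitals mark the GC box, GGGCGG read on either strand.
Sulf2, chr2:166155684-166155933, minus strand: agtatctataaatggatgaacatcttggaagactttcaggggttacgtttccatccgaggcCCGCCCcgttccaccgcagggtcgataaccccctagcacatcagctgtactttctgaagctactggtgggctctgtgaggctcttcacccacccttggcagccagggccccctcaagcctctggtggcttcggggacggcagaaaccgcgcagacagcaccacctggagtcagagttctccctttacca
Sdc3, chr4:130792287-130792536, plus strand: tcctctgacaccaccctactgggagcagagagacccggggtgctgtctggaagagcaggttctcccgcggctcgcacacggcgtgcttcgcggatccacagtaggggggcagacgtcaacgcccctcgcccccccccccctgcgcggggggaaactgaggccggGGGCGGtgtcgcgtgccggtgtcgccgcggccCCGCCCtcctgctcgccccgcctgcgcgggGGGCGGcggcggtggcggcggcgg
Of these windows 57.2% and 76.4% of bases were G or C. The letters GGGCGG occurred in a window of all 7 members, and in 32.7% of all 32851 promoters of the table. The core of the motif bound by TCF/LEF factors, the DNA-binding partners of β-catenin, written CTTTGAT on either strand, occurred in 0 of the 8 windows, against 3.21% of all promoters. Both are descriptions of these windows, not of binding.

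The coefficient of variation between βCat-GOF mice was 34.4% for *Gpc3*, 23.5% for *Gpc6* and 10.8% for *Gpc4*. *Gpc4* (chromosome X, 52053021 to 52165252), a glypican that can act as a co-receptor for Wnt and FGF ligands, ranged from 1662 to 2448 normalized counts in Ctrl (median 1866) and from 1655 to 2315 in βCat-GOF (median 1981). Its log2 fold change of 0.00 had a 95% interval from -0.21 to 0.21. *Gpc3* (chromosome X, 52272426 to 52613950), known as a brake on growth and on Hedgehog signaling, had 1179 to 2051 normalized counts in Ctrl (median 1660). In βCat-GOF mice it had 744 in βCat-GOF 3, 1105 in βCat-GOF 6, 1586 in βCat-GOF 4, 1620 in βCat-GOF 2, 1959 in βCat-GOF 5 and 2151 in βCat-GOF 1, a span that ran past the controls at both ends. Its log2 fold change was -0.06 (edgeR, adjusted p = 0.91, with a standard error of 0.23). The mice with the least *Gpc3*, βCat-GOF 3 and βCat-GOF 6, were also those with the lowest summed level of the 8 capsule and stroma markers, 7378 and 9309 normalized counts, against 10037 to 17250 in controls, and the part of these cells in the *Gpc3* values was not tested. *Gpc6* (chromosome 14, 116925315 to 117976544) had 511 to 661 normalized counts in Ctrl and 405 to 785 in βCat-GOF, a log2 fold change of -0.02 (95% interval -0.33 to 0.30). The lowest values of *Gpc6* in βCat-GOF were also in βCat-GOF 6 (405) and βCat-GOF 3 (489), and the highest in βCat-GOF 5.

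Among the syndecans, *Sdc3* (chromosome 4, 130792537 to 130826319), best known from neurons, had the most counts of any member. Controls had between 12973 and 16883 normalized counts (median 14481), and βCat-GOF mice had 9556 in βCat-GOF 1, 11214 in βCat-GOF 2, 11683 in βCat-GOF 5, 15051 in βCat-GOF 3, 15354 in βCat-GOF 6 and 17185 in βCat-GOF 4. Thus 3 βCat-GOF mice lay below all controls and the others among or above them, and the log2 fold change of -0.14 (edgeR, adjusted p = 0.61, with a standard error of 0.14) did not pass. These 3 mice were the ones with the most *Sulf1*. Without βCat-GOF 1 and βCat-GOF 2 the log2 fold change of *Sdc3* was 0.01. The 8 medullary markers, from the neural part of the gland, summed to between 79599 and 242493 normalized counts in Ctrl and between 100565 and 192706 in βCat-GOF, and to 133729, 137388 and 100565 in the 3 mice with little *Sdc3*. The 8 zF markers summed to 820009, 1063390 and 1266646 in these 3 mice. In βCat-GOF 3, βCat-GOF 4 and βCat-GOF 6 they summed to 1756073, 1847519 and 1780444, and in Ctrl to between 1124642 and 1312026. The part of either cell type in the *Sdc3* values was not tested. Opposite-strand genes cover 7.73% of the exons of *Sdc3*.

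*Sdc2* (chromosome 15, 32920723 to 33034935), a syndecan of fibroblasts and endothelium, was the steadiest of the 4 in βCat-GOF mice, with a coefficient of variation of 9.73%. It ranged from 3362 to 5018 normalized counts in Ctrl and from 3636 to 4816 in βCat-GOF, a log2 fold change of -0.02 (95% interval -0.24 to 0.20). *Sdc4* (chromosome 2, 164424247 to 164443887), which sits at focal adhesions, had 840 to 1075 in Ctrl (median 880) and 801 to 1230 in βCat-GOF (median 976). Its log2 fold change was 0.14 (edgeR, adjusted p = 0.51, with a standard error of 0.11), and 3 mice, βCat-GOF 6, βCat-GOF 4 and βCat-GOF 3, made up the upper part of the βCat-GOF range. *Sdc1* (chromosome 12, 8771323 to 8793715), the syndecan of epithelia and plasma cells, was the member with the fewest counts, 265 to 501 normalized counts in Ctrl and 285 to 509 in βCat-GOF (log2 fold change 0.03, 95% interval -0.34 to 0.41).

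*Hspg2* (chromosome 4, 137468769 to 137570630) encodes perlecan, a basement membrane proteoglycan. Controls had 2040, 2351, 2777, 3143, 3246 and 4833 normalized counts, and βCat-GOF mice had 2268, 3335, 3555, 3914, 4048 and 4579. Of the βCat-GOF mice, 5 of 6 lay above 5 of the 6 controls, but Ctrl 2 was the highest of all 12. The log2 fold change was 0.23 (95% interval -0.20 to 0.66, edgeR, adjusted p = 0.56), and 0.41 without that control.

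The genes that build, modify and break down the chains were taken as 6 lists of 69 genes in all, of which 63 passed the filter. At an adjusted p under 0.05 alone, 2 of the 63 fell and 0 rose, against 1.52% and 2.16% of all genes tested (edgeR). At an unadjusted p under 0.05 there were 9 lower and 5 higher, and DESeq2 gave 4 lower and 0 higher at an adjusted p under 0.05, the others being *Hs3st5* and *Arsg*. For neither of these 2 thresholds is the share over all genes given. These counts, and the unadjusted counts of each list below, therefore show neither an excess nor a lack. The median log2 fold change of the 63 was -0.0031. The 2 that fell, *Ndst1* and *Papss1*, came from the lists of chain modification and of sulfate supply, which held 12 and 7 of the 63.

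*Ndst1* encodes the N-deacetylase and N-sulfotransferase that makes the first sulfation of the chain. It had 3653 normalized counts in Ctrl 3, 5455 in Ctrl 4, 5498 in Ctrl 6, 5618 in Ctrl 1, 5894 in Ctrl 5 and 7600 in Ctrl 2. In βCat-GOF mice it had 3236 in βCat-GOF 5, 3285 in βCat-GOF 2, 3309 in βCat-GOF 4, 3450 in βCat-GOF 6, 3465 in βCat-GOF 1 and 3819 in βCat-GOF 3. The βCat-GOF mice lay close together, and 5 of the 6 were below every control. The log2 fold change was -0.72 (edgeR, adjusted p = 0.0095, with a standard error of 0.13), past all 3 cut-offs, which 1 of the 63 genes met. With 1 mouse left out the adjusted p lay between 0.0011 and 0.0254 in the 12 fits. The control with the least *Ndst1*, Ctrl 3, was the one with the most *Sulf1*.
*Papss1* makes PAPS, the sulfate donor of all sulfotransferases. It fell from a range of 1705 to 2824 normalized counts in Ctrl (median 2135) to one of 1404 to 1771 in βCat-GOF (median 1621), and 5 of the 6 βCat-GOF mice lay below all controls. The log2 fold change was -0.45 (edgeR, adjusted p = 0.0498, with a standard error of 0.12), under the fold cut-off. This call was at the threshold: in the 12 fits without 1 mouse the adjusted p ran from 0.0279 to 0.0985 and was under 0.05 in 3 of them, those without Ctrl 3, Ctrl 5 or βCat-GOF 1. Over all 21 alternatives it ran from 0.0135, by DESeq2, to 0.0985. *Papss2*, its paralog, had a log2 fold change of 0.37 (adjusted p = 0.23).

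**Figure D3:**
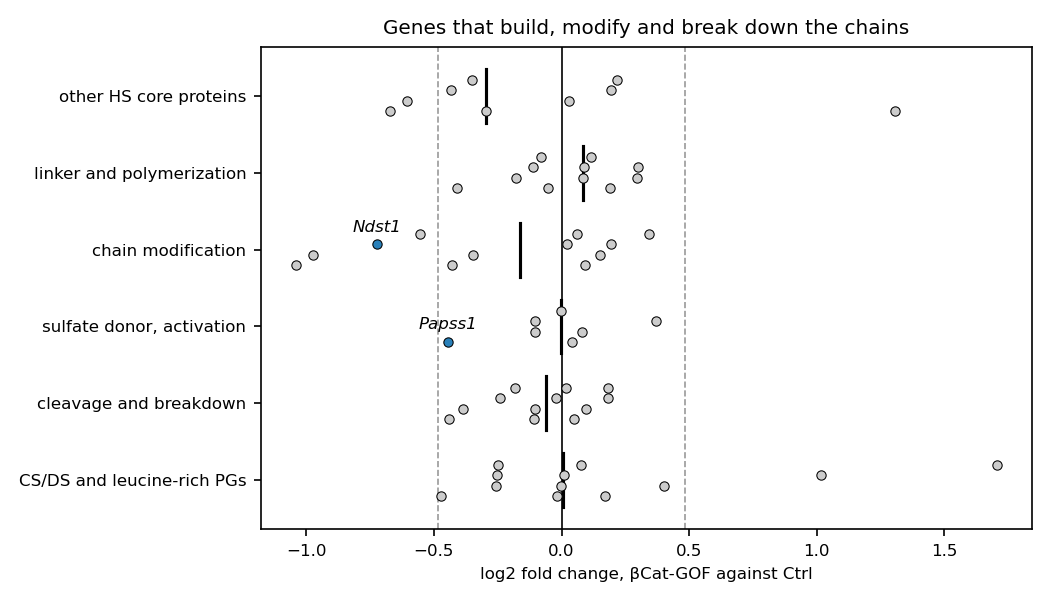
Log2 fold changes (x axis) of the 63 tested genes in 6 lists (rows), with the median of each list as a black bar and dashed lines at a fold of 1.4; heights of points within a row carry no value. *Ndst1* (-0.72) and *Papss1* (-0.45), in blue, had an adjusted p under 0.05.

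In the list of 16 chain-modifying enzymes 12 were tested. Apart from *Ndst1*, 0 passed by edgeR, and 2 lower had an unadjusted p under 0.05. The largest of the other changes were in genes of low counts. *Hs3st5*, a 3-O-sulfotransferase, had 18.0 to 40.4 normalized counts in Ctrl and 6.89 to 18.5 in βCat-GOF (log2 fold change -1.04, adjusted p = 0.085 from edgeR), and -1.34 without βCat-GOF 1 and 2 (adjusted p = 0.035, edgeR). *Ndst3* and *Hs3st6*, also sulfotransferases, had log2 fold changes of -0.97 and -0.56 (adjusted p = 0.22 and 0.33), and *Hs3st1* had -0.43 (adjusted p = 0.39). The list of sulfate supply and sulfatase activation had 7 genes, all tested. In it *Sumf1*, which converts the catalytic cysteine of sulfatases such as the Sulf enzymes to its active form, had a log2 fold change of -0.10 (adjusted p = 0.52). *Slc35b2*, which carries PAPS into the Golgi, also had -0.10 (adjusted p = 0.68), and *Ugdh*, which makes the precursor of glucuronic acid, had 0.08 (adjusted p = 0.59).

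Of the 11 genes of linker and chain polymerization 0 passed by edgeR or DESeq2, with 2 higher at an unadjusted p under 0.05. *Extl1* had a log2 fold change of -0.41 (adjusted p = 0.26 from edgeR). *Xylt1*, which attaches the first sugar of the linker, had 0.30 (adjusted p = 0.52). For *Ext1*, a subunit of the chain polymerase, it was 0.30 (adjusted p = 0.23), or 0.44 without βCat-GOF 1 and 2 (adjusted p = 0.030, edgeR, with a range up to 0.619 over the alternatives). For *B3gat3*, which completes the linker, it was 0.19 (adjusted p = 0.20), with 4 of 6 βCat-GOF mice above all controls.
Of 9 other core proteins 0 passed by edgeR or DESeq2, with 3 lower at an unadjusted p under 0.05 and a median log2 fold change of -0.30. *Agrn*, which encodes the basement membrane proteoglycan agrin, had 836 to 1329 normalized counts in Ctrl and 503 to 1098 in βCat-GOF, a log2 fold change of -0.43 (adjusted p = 0.18 from edgeR). Without βCat-GOF 1 and βCat-GOF 2 it was -0.67 and passed all cut-offs (adjusted p = 0.0182, edgeR, with a range up to 0.314 over the alternatives). The testicans *Spock3* and *Spock1* had -0.67 and -0.60 (adjusted p = 0.22 and 0.25). *Gpc5* had 1.31 with a standard error of 0.76 (adjusted p = 0.35), from 6.67 to 68.3 normalized counts in Ctrl and from 2.32 to 226 in βCat-GOF. The highest value was in βCat-GOF 3, without which it was 0.54 (adjusted p = 0.73, edgeR).

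Of 13 genes for cleavage, shedding and lysosomal breakdown, 12 were tested and 0 passed by edgeR, with 2 lower at an unadjusted p under 0.05. They were *Arsg*, a lysosomal sulfatase (log2 fold change -0.44, adjusted p = 0.065), and *Gpld1*, which cuts the type of lipid anchor that glypicans carry (-0.39, adjusted p = 0.13). *Arsg* passed all cut-offs without βCat-GOF 3 (-0.50, adjusted p = 0.0439, edgeR, with a range from 0.0125 to 0.131 over the alternatives). *Ids*, another lysosomal sulfatase, had -0.24 (adjusted p = 0.32). Chondroitin and dermatan sulfate or leucine-rich proteoglycans, which carry other chains, gave 0 passes by edgeR or DESeq2 among 12 of 13 genes tested, with 2 higher at an unadjusted p under 0.05. *Acan* had 1.71 with a standard error of 0.79 (adjusted p = 0.24, edgeR), a value that few libraries decided. It had 189 and 203 normalized counts in βCat-GOF 1 and 2 and 19.5 to 49.3 in the other βCat-GOF mice. Its log2 fold change was 0.21 without these 2 mice (adjusted p = 0.88), and 3.02 without Ctrl 2 (adjusted p = 0.043, edgeR). *Ptprz1* had 1.02 (adjusted p = 0.17), and passed all cut-offs without βCat-GOF 1 and 2 (adjusted p = 0.018, edgeR). *Dcn* had -0.47 (adjusted p = 0.26) and *Vcan* 0.40 (adjusted p = 0.50).

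The mice with the most *Sulf1* in each group also had the highest level of zG marker genes. The 8 markers summed to 65436, 62267 and 52699 normalized counts in βCat-GOF 1, βCat-GOF 2 and βCat-GOF 5, the 3 βCat-GOF mice with the most *Sulf1*, and to 36427, 37720 and 46630 in βCat-GOF 3, βCat-GOF 4 and βCat-GOF 6. Among controls the highest sum, 40658, was in Ctrl 3, the control with the most *Sulf1*. That control was also the one with the least *Ndst1*, and the 3 βCat-GOF mice were those with the least *Sdc3*. Other marker lists went with the same mice. The 8 capsule and stroma markers were also highest in Ctrl 3 (17250) among controls. In βCat-GOF they were highest in βCat-GOF 5, 1 and 2 (16850, 15388 and 11136, against 7378 to 10364 in the others). The 8 zF markers were lowest in these 3 βCat-GOF mice (820009 to 1266646, against 1756073 to 1847519). Among controls they were lowest in Ctrl 2 (1124642), not Ctrl 3 (1166368). The part of any marker level in the values of *Sulf1*, *Ndst1* and *Sdc3* was not tested. The genes whose log2 CPM followed *Sulf1* most closely over the 12 mice were *Cpb1* (Pearson r = 0.97), *Elovl7* (0.97) and *Mest* (0.96). Within the 6 controls these correlations were 0.97, 0.91 and 0.86, and within the 6 βCat-GOF mice 0.85, 0.93 and 0.96. They describe libraries that share depth and tissue composition, and carry no test.

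**Figure D4:**
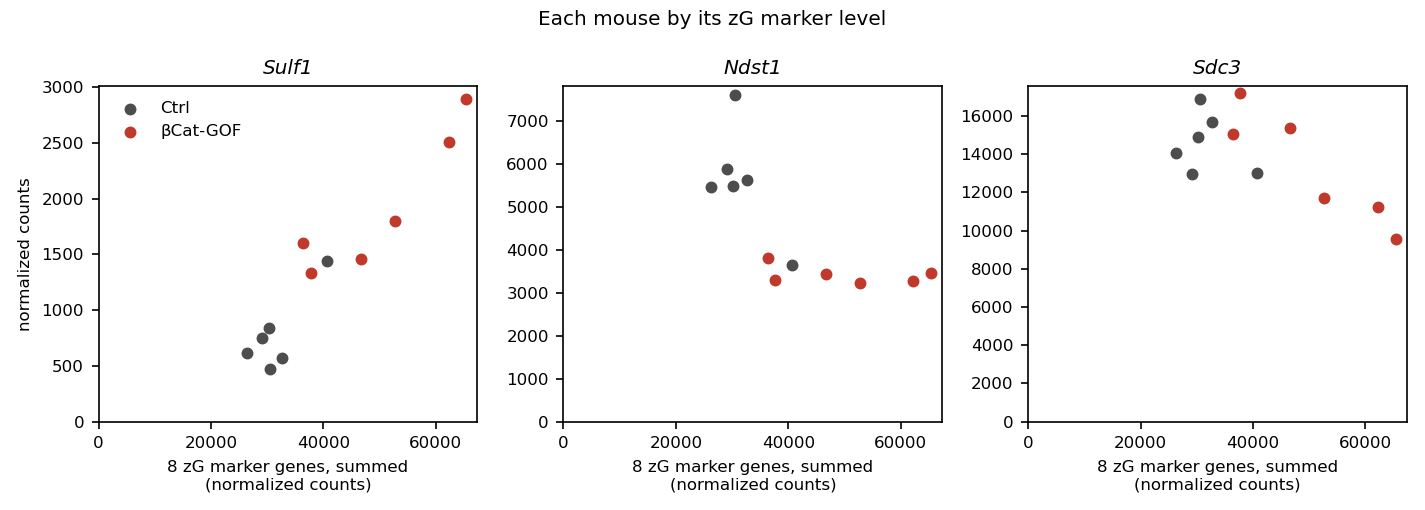
Normalized counts of *Sulf1*, *Ndst1* and *Sdc3* (y axes) against the summed normalized counts of 8 zG markers (x axes), 1 point per mouse, 6 per group. The control at 40658 on the x axis, Ctrl 3, lies among βCat-GOF mice for *Sulf1* (1439) and *Ndst1* (3653).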

How the data were processed

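RNA of 12 whole adrenal samples, 6 Ctrl and 6 βCat-GOF, was sequenced with 1 library per sample. The authors trimmed adapters, used STAR for alignment to mm10 and featureCounts 1.4.4 for gene counts of uniquely mapped reads, and deposited the counts without normalization. A second deposited table holds signal values, each library's counts over 1 size factor. Gene symbols were taken from it, and its factors were checked (0.9545 to 0.9758 times those used here). The annotation release and strand setting are not given in the sources used here. A total of 0 columns were left unmapped. Groups came from the genotype labels.

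Counts were tested with edgeR 4.0.16 in R 4.3.3 (TMM, filterByExpr, quasi-likelihood test, two-sided, Benjamini-Hochberg adjustment over 14953 genes), where the study had used DESeq2 1.6.3. Intervals are 95% intervals from the same fit. Normalized counts were obtained with the median-of-ratios factors of DESeq2, and log2 CPM used a prior count of 2. CPM per kb used TMM-scaled totals and the merged exons of GENCODE M21 on GRCm38. A level of 3 counts was worth 0.117 to 0.222 CPM. The ratio test used all 924 splits of the mice on log2 values with a pseudocount of 0.5. The study used littermates where it could, but the labels tie no sample to a litter, so the tests treat the samples as independent. Each p-value sets the difference between the groups against the spread of samples within them. The scripts were tested on simulated data. With blastn 2.17.0, 0 copies at 95% identity over 10% of the longest transcript were found for any member.

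Members and lists were chosen with earlier results of these data known. Named genes are the members, list genes with an adjusted p under 0.05 plus the 4 largest other changes in each list, and the 3 genes most like a called member. A result for 1 of them is not reported here. Alternatives were DESeq2 1.42.0 without and with its prior, DESeq2 factors in edgeR, no filter, at least 10 counts in every mouse, 1 surrogate variable (sva 3.50.0), other cut-offs, leaving out mice, and, added after seeing the data, transcript lengths. Figures used matplotlib 3.10.9 and Python 3.11.15.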

Additional observations from a re-analysis of the deposited data

Results flagged for a closer look

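In 5 of the 74 groups of 6 mice examined (the members, the named list genes and the ratio of *Sulf1* to *Sulf2*), 1 mouse stood apart from the others by Dixon's criterion for 6 samples, where chance flags about 1 group in 20. *Sdc4* had 1075 normalized counts in Ctrl 4, against 840 to 912 in the other controls. *Ptprz1* was high in the same control, at 283.6 against 132.1 to 187.5. *Acan* had 103.4 in Ctrl 2, against 5.59 to 17.1 in the others. *Hs3st1* had 414.3 in βCat-GOF 1, against 200.9 to 280.1. *Ids* had 1099 in βCat-GOF 4, against 1713 to 2015.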

How the results depend on the processing

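*Sulf1* and *Ndst1* kept their direction and passed the cut-offs in all 21 alternative fits. Their log2 fold changes ran from 0.97 to 1.59 and from -0.85 to -0.62. The fit without βCat-GOF 5 is counted 2 times among these 21, and likewise among the 17 alternatives for the ratio. At an adjusted p under 0.01, 0 members passed. The ratio of *Sulf1* to *Sulf2* kept its direction and a p under 0.05 in all 17 alternatives (log2 difference 1.05 to 1.51, exact permutation p from 0.0043 to 0.019). Leaving out βCat-GOF 1 and βCat-GOF 2 raised the genes called over the whole table from 222 to 440 higher and from 130 to 470 lower, DESeq2 without shrinkage gave 361 and 280, DESeq2 with its prior 327 and 254, and leaving out mice whose label repeats a stem 255 and 228. Without βCat-GOF 1 and βCat-GOF 2, *Agrn* (-0.67), *Papss1* (-0.50), *Arsg* (-0.52) and *Ptprz1* (adjusted p = 0.018, edgeR) passed all cut-offs, and *Papss1* also did without Ctrl 3 (-0.50) or Ctrl 5 (-0.49).

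Log2 fold changes near 0 changed sign without passing, and the cause was not tested. With 1 surrogate variable *Gpc3* was 0.0924, *Gpc4* -0.0855, *Gpc6* 0.0425 and *Sdc1* -0.106. Without βCat-GOF 5 *Sulf2* was -0.0202 and *Sdc2* 0.0201. Without mice whose label repeats a stem *Sdc2* was 0.083, and without βCat-GOF 1 and βCat-GOF 2 *Sdc3* was 0.0103. With 1 mouse left out the ranges were -0.0544 to 0.0649 for *Sulf2*, -0.185 to 0.0718 for *Gpc3*, -0.0501 to 0.0746 for *Gpc4*, -0.113 to 0.0638 for *Gpc6*, -0.0676 to 0.134 for *Sdc1* and -0.0762 to 0.0522 for *Sdc2*. No paired analysis was possible because no label ties a control to a βCat-GOF mouse.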
